A study of Homo sapiens with 6 samples.

Results

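The 9 genes described here encode DNA helicases that act in genome repair: the RecQ family helicases BLM, WRN, RECQL, RECQL4 and RECQL5, and the repair helicases BRIP1, RTEL1, HELQ and DNA2. Their data are 160 of 200023 peaks of poly(A) 3′-seq, namely every peak whose summit lay inside a gene body or up to 4 kb past its 3′ end. The assay reads the junction between a transcript and its poly(A) tail, so a peak marks a place where polyadenylated RNA ended, or where an A-rich stretch inside a transcript was primed.

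The 6 libraries described with these data came from IMR-32, a human neuroblastoma line, in 3 groups of 2 replicates: DMSO solvent, 400 nM THZ531 for 2 h and 400 nM THZ531 for 6 h. The compound THZ531 binds covalently to CDK12 and CDK13, kinases of the RNA polymerase II tail, and blocks them, and the study asked where transcripts then end. The authors called peaks once on merged reads, without strand and without a value for any library. The study also sequenced poly(A) 3′ ends of other neuroblastoma cells and of cells depleted of these kinases, and whether their reads entered the merge is not stated. DMSO therefore could not be compared with THZ531 here, no height has a replicate error, and the depth of each library is unknown.

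RecQ helicases unwind forked, bubbled and recombining DNA. BLM dissolves joined DNA molecules with a topoisomerase, and WRN carries a nuclease as well as a helicase; their inherited loss causes Bloom and Werner syndromes. RECQL helps to restart replication forks, RECQL5 restrains recombination, and RECQL4 takes part in replication initiation. BRIP1 (FANCJ) is a partner of BRCA1 that unwinds DNA in the opposite polarity, RTEL1 opens telomere loops, HELQ acts in repair of crosslinked and broken DNA, and DNA2 is a nuclease and helicase that trims 5′ flaps and resected ends. A long gene holds many poly(A)-signal letters in its introns, and a transcript that ends there lacks the exons downstream.

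Of the 160 peaks, 134 passed the study's cutoff of a −log10 q-value of at least 5, and only these are described further. Among them, 82 were intronic, 26 lay at the annotated end of one of the gene's own transcripts, 19 were in exons, 3 lay downstream and 4 lay at ends of other genes. All 82 intronic summits fell in an intron of the canonical transcript (the reference isoform in Gencode 44) and had genes on 1 strand only. The study also discarded peaks that had a genomic stretch of A downstream and no poly(A) motif upstream. That filter was not applied here. Without such peaks, by the windows given below, 75 intronic peaks remained. A peak counted as own-end when its summit fell from 200 bp before to 600 bp after an annotated transcript end, and as intronic when it fell in no such window and no exon. Heights are given as reads at the summit, that is the number of reads, extended to 100 bp, that overlapped there in the merged reads. The peak caller by default keeps 1 read per start position and strand, and no height in the whole list exceeded 200 reads, so heights are not transcript levels.

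The sequences below show the letters before or around the ends in question. Each line is 30 bases of GRCh38 on the gene's strand, with one or more of the 12 poly(A)-signal hexamers used by the study in capitals. The first group is from the tallest intronic peak of each gene, around AATAAA or, without it, another hexamer found in the 100 bp before the peak's 3′ edge. These are chr15:90732668-90732697 (plus strand, BLM intron 1), chr17:61789587-61789616 (minus strand, BRIP1 intron 10), chr10:68467420-68467449 (minus strand, DNA2 intron 3), chr4:83452280-83452309 (minus strand, HELQ intron 2) and chr20:63669409-63669438 (plus strand, RTEL1 intron 8).
BLM intron 1: aataatgaAATAAAttccaaacttagaaag
BRIP1 intron 10: cccagtatAATAAAcagttctgatatgaac
DNA2 intron 3: tattttaaAATAAAaagtctcaaaaaaaaa
HELQ intron 2: tgagccacAATAAAatacagtaacacgata
RTEL1 intron 8: agaaaaacATTAAAatttagacttcaccaa

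From the start of the capitals to the 3′ edge of the peak there were 60 bases in BLM, 25 in BRIP1, 13 in DNA2, 49 in HELQ and 60 in RTEL1. The DNA2 and HELQ peaks also had runs of 10 and 11 A near the edge. The DNA2 line runs past the edge, and its closing run of A lies downstream of it. Within 50 bp past the edge, the richest 25 bases held 18 A in BLM, 15 in RTEL1, 14 in HELQ, 11 in DNA2 and 6 in BRIP1. The BLM and BRIP1 peaks, the tallest intronic ones of the set, thus lay in very different surroundings, A-rich in BLM and not in BRIP1. RECQL5 is not in the list because its tallest intronic peak had none of the 12 hexamers in that window, and RECQL because its window met an annotated exon.

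The second group is the last 30 bases before the peak edge at annotated ends where the edge came within 10 bp of the annotation: chr15:90816134-90816163 (plus strand, end of the canonical BLM-201), chr20:63696218-63696247 (plus strand, RTEL1-204), chr10:68414061-68414090 (minus strand, DNA2-207), and the minus-strand ends chr17:61681271-61681300, chr17:61844934-61844963 and chr17:61739061-61739090 of BRIP1-216, BRIP1-209 and BRIP1-206. The minus-strand ends chr10:68416618-68416647 of DNA2-203, chr4:83407343-83407372 of HELQ-203 and chr17:75650367-75650396 of RECQL5-218 complete the 9 such ends with genes on 1 strand. Of these 9, 6 have AATAAA in the stretch shown and 3 have another hexamer. They show full-length and short isoform ends beside the intronic ends above.
BLM-201: tcaatctccatgAATAAAaatatGATAAAa
RTEL1-204: tctctAATAAAgctgctggcagtgcccagg
DNA2-207: atttAATAAAttttttctactaatggatct
BRIP1-216: taaAATAAAgcatattatttcatttaaaaa
BRIP1-209: gttgtctAATAAAtatttatttgttgaatg
BRIP1-206: cttAATAAAATACAattttgttccctaaaa
DNA2-203: tgtttaaATTAAAgctctcactatgttgct
HELQ-203: aaaaAATACAtttcagttatacattaagaa
RECQL5-218: gtttttgcAAGAAAaaagcgaggaaatcag

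**Figure D1:**
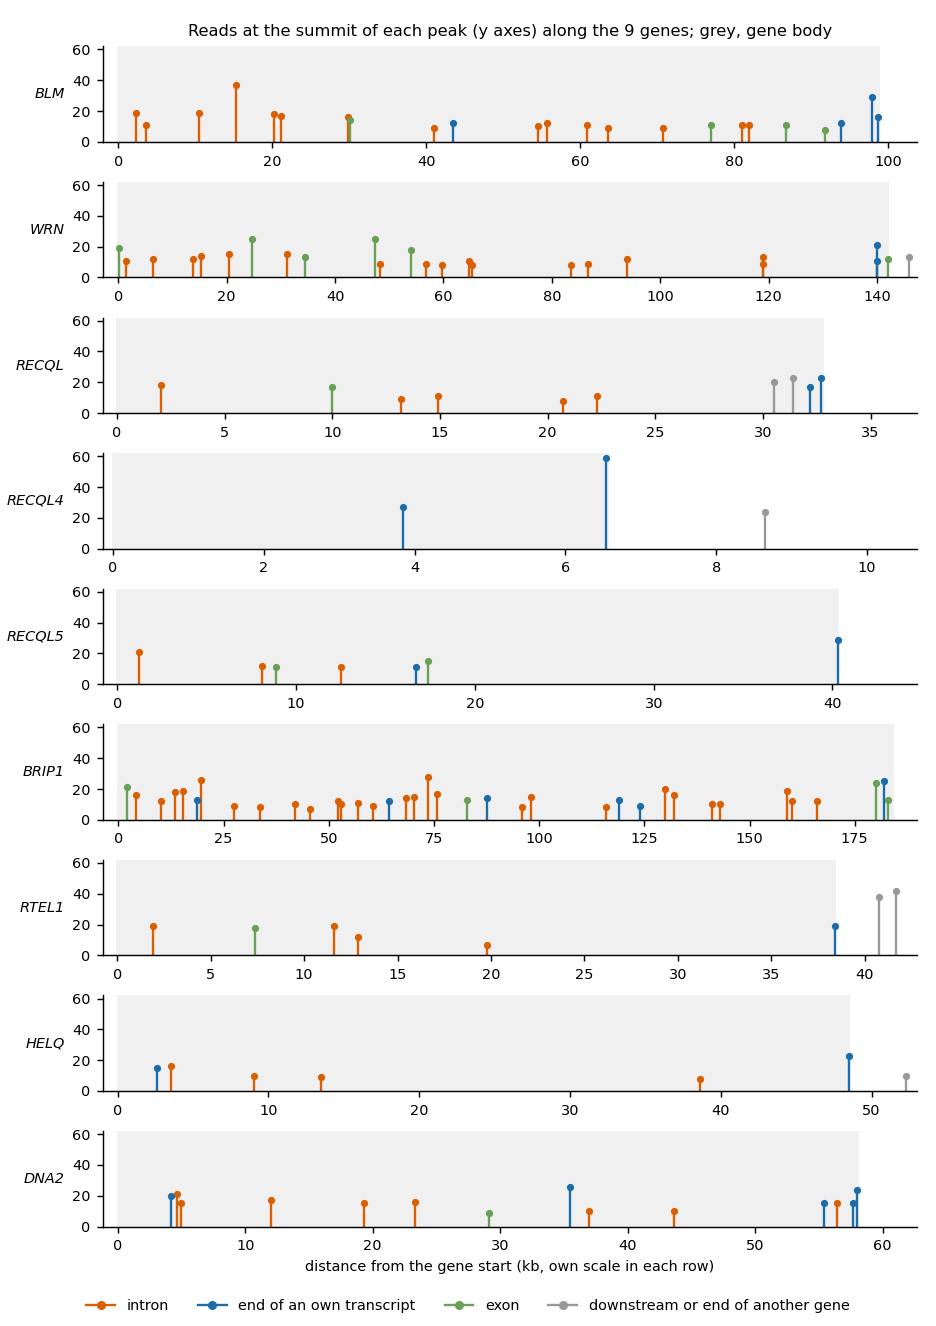
Peaks along the 9 genes, with distance from the gene start in kb on the x axis (own scale in each row) and reads at the summit on the y axis. Each line is 1 of the 134 peaks with −log10 q of at least 5, coloured by class, and the grey area is the gene body. Intronic peaks crowd the long genes BRIP1, WRN and BLM, whereas RECQL4 has none.

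The cells' label was checked first. All 11 markers of noradrenergic neuroblastoma reported here, such as HAND2 and GATA3, had an own-end peak. Among 10 markers of other cells, 2 had one, with 7 reads at EPCAM and 15 reads at COL1A1. All 9 helicase genes were detected by the same criterion, their tallest own-end peaks running from 19 to 59 reads. Detection was common, since 12425 of all 18754 protein-coding genes with an intron met this criterion.

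Intronic peaks were found in 8 of the 9 genes, where 78.1% of 12425 detected protein-coding genes with an intron had at least 1. BRIP1 had 27, WRN 16 and BLM 15, and these 3 long genes together held 58 of the 82. DNA2 had 8, RECQL 5, HELQ 4, RTEL1 4 and RECQL5 3. RECQL4 had 0 in a gene of 6.56 kb with 0.646 kb of sequence outside its annotated exons and end windows. The counts followed gene length among the 5 longest genes, although BLM, at 98.8 kb, nearly matched WRN, at 142 kb.

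Counted per kb of such intronic sequence, the 9 genes together had 0.151 intronic peaks per kb and all detected genes together 0.0847. Since the density varied with gene length, each gene was ranked within its length group, 1 of 20 groups of 620 or 621 detected genes. BRIP1, with 0.168 per kb against a median of 0.0732, ranked at percentile 96.8. BLM, with 0.171 against 0.104, ranked at percentile 87.7. RECQL followed at percentile 81.2 with 0.189 per kb. In these genes the intronic peaks were denser than in most genes of like length.

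DNA2 and RTEL1 both ranked at percentile 76.1, with 0.162 and 0.183 per kb, and WRN at percentile 71.6 with 0.123. RECQL5 lay near the middle of its length group, at percentile 54.4 and 0.132 per kb. HELQ, at percentile 35.3 with 0.0896 per kb, was below the median of 0.117 of its length group, so the set was not uniform. RECQL4 tied with the many short genes that had no intronic peak. Ranks are a description, since genes of 1 merged list are not replicates. BRIP1, at 184 kb, is near the lower bound of its length group, and against the 250 next shorter and 250 next longer genes, a comparison chosen after seeing the data, it ranked at percentile 95.2 and BLM at percentile 86.6. With peaks below the cutoff included, the rank of BRIP1 was 70.1 and that of RECQL5 87.3. Without peaks with at least 18 A past the edge, BRIP1 ranked at percentile 91.2, RECQL at 61.5 and RTEL1 at 87.8.

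**Figure D2:**
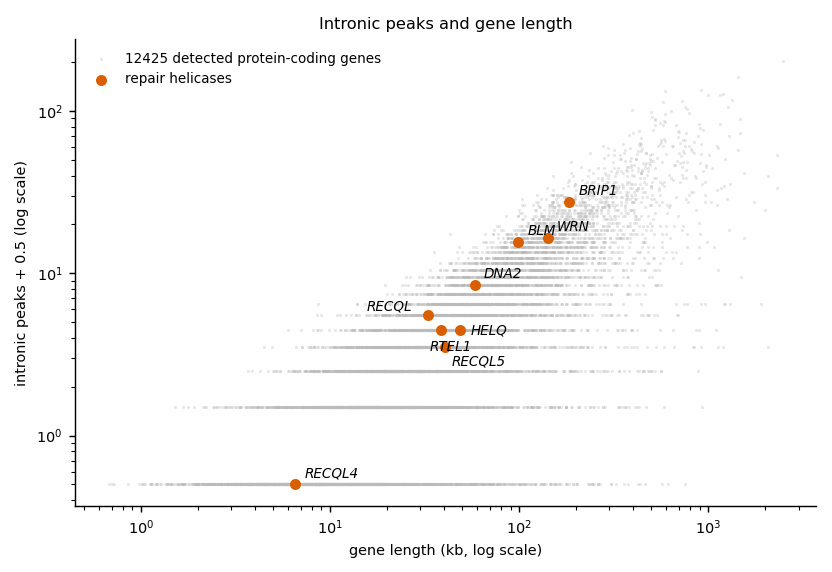
Intronic peaks (plus 0.5, log scale) against gene length (kb, log scale) for 12425 detected protein-coding genes (grey) and the 9 repair helicases (orange, labelled). By count, BLM and BRIP1 sit at percentiles 89.5 and 86.7 of their length groups, DNA2 and RECQL at 83.7 and 83.1, HELQ near the middle of the cloud, and RECQL4 on the bottom line of genes without an intronic peak.

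The letters along the genes also differed within the set. BLM held 104 AATAAA on its own strand and 50 matches to GGTGAG, to the related GGTAAG or to the related GTGAGT, letters like those that U1 snRNP pairs with at 5′ splice sites. That gives 0.481 U1-like matches per AATAAA, at percentile 9.68 of its length group, whose median was 0.797. BRIP1 had 0.421 (percentile 7.42), WRN 0.549 (22.1), RECQL 0.649 (21.1) and DNA2 0.609 (19.5). HELQ had the lowest ratio of the set, 0.342 at percentile 3.06, together with the lowest density among genes with an intronic peak. At the other extreme were RECQL4, with 17 U1-like matches and 1 AATAAA, and RTEL1, with 8.5 per AATAAA at percentile 98.1, while RECQL5 had 2.63. RTEL1 had an intronic density above its length group's median. GC content ran from 36% in WRN and BRIP1 to 65.5% in RECQL4. RECQL4, RTEL1 (59.6%) and RECQL5 (53.2%) had the highest GC content and the highest ratios. How the ratio relates to GC content or to density was not tested. Matches are letters in the sequence and were not tested as sites.

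The median height was 12 reads for the 82 intronic peaks and 12 for all intronic peaks of the list. They ranged from 7 to 37 reads, and 6 reached 20 or more. These were 1 in BLM (37), 3 in BRIP1 (28, 26 and 20), 1 in RECQL5 (21) and 1 in DNA2 (21). Of peaks with AATAAA in the 100 bp before the edge, 5 of 32 reached 20 reads, against 3649 of 20087 in the list. Of those without any hexamer there, 1 of 35 did, against 4375 of 32361. Both shares were below those of the list, and no difference was tested. The median of the 26 own-end peaks was 16.5 reads, against 18 for all transcript-end peaks of the list.

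Within each gene, the tallest intronic peak was set against the tallest own-end peak. It was higher in 2 of the 8 genes with an intronic peak, BLM and BRIP1, where 32% of 9709 detected genes with an intronic peak showed this. In BLM the values were 37 reads (exact Poisson 95% interval 26.1–51) at chr15:90732493-90732735 in intron 1 and 29 reads (19.4–41.6) at chr15:90815264-90815635. In BRIP1 they were 28 reads (18.6–40.5) at chr17:61789584-61790028 in intron 10 and 25 reads (16.2–36.9) at chr17:61681271-61681434. The intervals overlapped in both genes, so neither difference exceeded counting error. The BLM own-end peak, however, also lay under a gene of the opposite strand. Against the canonical end of BLM, its tallest own-end peak with genes on 1 strand, which had 16 reads (9.15–26), the interval of the intronic peak did not overlap. The intronic peak was picked as the tallest of 15, a choice the interval does not cover, and no difference was tested. Measured as fold enrichment over the local background, the order in BLM turned around, with 11.4 for the intronic and 14.9 for the own-end peak, and without peaks with at least 18 A past the edge only BRIP1 kept its order.

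In the other genes with an intronic peak the own-end peak was as high or higher. The order in DNA2 turned around with an end window of 100 bp either side, and with canonical transcripts only. In the latter setting BLM and DNA2 had the taller intronic peak, while BRIP1 and WRN had no canonical-end peak to compare. RTEL1 had 19 reads at both its tallest intronic and its tallest own-end peak. DNA2 had 21 reads (13–32.1) in intron 3 and 26 (17–38.1) at an own end, RECQL5 21 (13–32.1) in intron 2 and 29 (19.4–41.6), and RECQL 18 (10.7–28.4) in intron 1 and 23 (14.6–34.5). WRN had 15 (8.4–24.7) in intron 4 and 21 (13–32.1), and HELQ 16 (9.15–26) in intron 2 and 23 (14.6–34.5). Every pair of intervals overlapped. Poisson intervals cover counting error only, not the choice of the tallest peak.

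**Figure D3:**
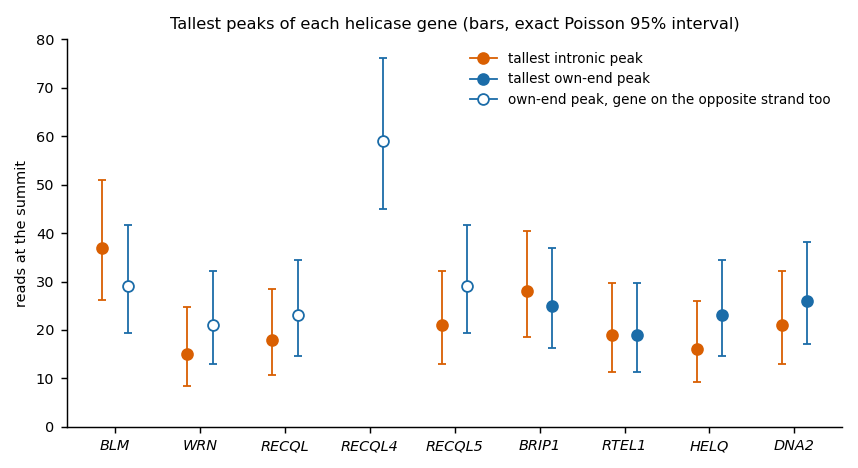
Reads at the summit (y axis) of the tallest intronic peak (orange) and the tallest own-end peak (blue) of each gene (x axis), with exact Poisson 95% intervals as bars. Open symbols mark own-end peaks that also lay under a gene of the opposite strand, which holds for the 5 RecQ genes. The intervals of the pair overlap in each of the 8 genes that have both.

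Own-end heights carried a second limit that fell on the RecQ family alone among these genes. The list has no strand, and the tallest own-end peak of BLM, WRN, RECQL, RECQL4 and RECQL5 also lay under a gene of the opposite strand. That is 5 of 9 genes, against 27.7% of the 12425 detected genes. The opposite genes were the lncRNA genes ENSG00000287061 at BLM and ENSG00000253961 at WRN, PYROXD1 at RECQL, MFSD3 at RECQL4 and MYO15B at RECQL5. Reads of the 2 genes cannot be told apart there. The 59 reads at chr8:144511109-144511408, the tallest own-end peak of the set, are shared in this way between RECQL4 and MFSD3. No such gene overlapped the tallest own-end peak of BRIP1, RTEL1, HELQ or DNA2. In WRN, RECQL and RECQL4 every own-end peak lay under a gene of the opposite strand. Their detection and their end heights therefore rest on peaks that cannot be assigned to a single gene.

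BLM had its most intronic peaks at its start. Intron 1, of 29.9 kb, held 7 of the 15 and 32% of the canonical intron sequence. Their heights were 19, 11, 19, 37, 18, 17 and 16 reads from the start on, whereas the other 8 had 9 to 12 reads. The local background was also higher in intron 1, 0.8 to 2.34 reads at its 7 peaks against 0.59 to 1.16 at the other 8, so more reads were needed there to pass the cutoff. As fold enrichment the 7 had 5.71 to 11.4 and the other 8 had 5.56 to 6.95, ranges that overlapped. All 7 lay before any coding sequence, the first of them at chr15:90719620-90719780, 2.36 kb into the gene, with 19 reads. Intron 12 held 4 more. The canonical end of BLM, chr15:90815983-90816163, had 16 reads (9.15–26), and its edge was 3 bp short of the annotated end.

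WRN also began with peaks before its coding sequence, 5 of 16 in intron 1, a stretch of 24.4 kb with 18.1% of its intron sequence. They had 11 to 15 reads, so no peak stood out as in BLM. Across all 8 genes, 13 of 82 intronic peaks, or 15.9% (95% Wilson interval 9.51–25.3%), lay in the first intron. First introns held 10.6% of the intron sequence when each gene was weighted by its intronic peaks, a value inside that interval. Wilson intervals here treat peaks as independent, although 58 of the 82 intronic peaks came from BRIP1, WRN and BLM. They are descriptive. The 13th peak was the tallest of RECQL, 18 reads at chr12:21499589-21499693. No first-intron peak was found in the other 5 genes with intronic peaks, whose first introns were 0.472 to 1.71 kb long.

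The tallest peaks of WRN were in exons, outside the rule for intronic and end peaks. It had 25 reads both at chr8:31058344-31058532 over exon 2 and at chr8:31081021-31081166 over exon 9, 19 over exon 1 and 18 over exon 12. Of its 6 exon peaks, 5 had an AATAAA in the window before the edge. The canonical end of WRN had no peak within the window: a peak of 12 reads at chr8:31175814-31175914 ended 224 bp before it and was counted as an exon peak. The own-end peak of 21 reads, chr8:31173306-31173761, ended 2 bp short of the end of the retained-intron transcript WRN-203, inside canonical exon 35. Exon peaks were fewer in the other genes, with 4 each in BLM and BRIP1, 2 in RECQL5, 1 each in RECQL, RTEL1 and DNA2, and 0 in RECQL4 and HELQ.

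In BRIP1 the 27 intronic peaks spread over 10 introns, with 7 in intron 6, 4 in intron 16 and 3 each in introns 10, 14 and 17. None was in the first 2 introns, although a peak of 21 reads over an exon of another BRIP1 transcript lay in intron 1. The first intronic peak lay in intron 3 at chr17:61859166-61859462, with 16 reads. After intron 17 there was none, and the last exon held an own-end peak of 25 reads, at the end of BRIP1-216, and an exon peak of 24 reads at chr17:61683178-61683464, away from any annotated end. No peak lay in the window of the canonical end. BRIP1 also had annotated short isoforms with a peak at their end. BRIP1-209 ends in canonical intron 6, after 16.7% of the coding sequence, and had a peak of 13 reads at chr17:61844934-61845034 whose edge was 2 bp past the annotated end. BRIP1-206 ends in intron 16, after 63.5%, and had 9 reads at chr17:61739061-61739164, 4 bp short of the end. A taller intronic peak, 26 reads at chr17:61843901-61844040, stood in the same intron 6 without an annotated end in its window.

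Annotated short isoforms were also met in RECQL5 and DNA2. RECQL5-218 ends in canonical intron 8, after 41.3% of the coding sequence, and a peak of 11 reads at chr17:75650367-75650479 ended 5 bp short of it. In DNA2 the own-end peak of 26 reads at chr10:68436567-68436684 lay in canonical intron 10, with 51.8% of the coding sequence upstream and 287 bp past the end of the retained-intron transcript DNA2-204. The canonical end of DNA2, at chr10:68414061-68414174, had 24 reads (15.4–35.7), within the counting error of the former. DNA2 had 2 neighbouring peaks in intron 3 with 13.9% of the coding sequence upstream, of 20 reads at chr10:68467746-68468018, 421 bp past the end of DNA2-205, and of 21 reads at chr10:68467429-68467598, 738 bp past it. The end window placed the former among own ends and the latter among intronic peaks.

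HELQ showed a like pair in intron 2, after 30.6% of its coding sequence. A peak of 15 reads at chr4:83453183-83453287 was 537 bp past the end of HELQ-206, and the intronic peak of 16 reads at chr4:83452253-83452367 was 1467 bp past it. The end of the gene was placed to the base: the peak of 23 reads at chr4:83407343-83407479 had its edge 0 bp from the annotated end. In RTEL1, whose gene overlaps the RTEL1-TNFRSF6B readthrough gene on the same strand, the own-end peak of 19 reads at chr20:63696145-63696247 ended 1 bp short of RTEL1-204. Taller peaks of 38 and 42 reads past the gene lay at ends of TNFRSF6B or ARFRP1 and are not assigned to RTEL1. RECQL likewise had 2 peaks of 20 and 23 reads in its body that lay at ends of PYROXD1.

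Over all 9 genes, 7 of the 26 own-end peaks lay in a canonical intron, and 7 were at a canonical end, 1 in each gene but WRN and BRIP1. Of 17 own-end peaks with genes on 1 strand, 9 (52.9%, Wilson interval 31–73.8%) had the edge within 10 bp of an own annotated end. In the list, 24329 transcript-end peaks had genes on 1 strand. Of these, 38% had the edge within 10 bp of an annotated end of a protein-coding gene. Only ends of protein-coding genes counted as a match there, so the 38% is not a like measure for the 52.9%. A hexamer was present at 14 of the 17 (82.4%), against 79.9% in the list. Both list shares lay inside the Wilson intervals, which treat peaks of the same gene as independent, and no difference was tested.

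The intronic peaks were then read for the letters of a poly(A) signal and for A-rich sequence. The 12 hexamers searched in the 100 bp before the 3′ edge, on the gene's strand, were AATAAA together with 11 variants of it, counted also where they overlap. The variants that begin otherwise were CATAAA, besides it GATAAA, and besides that TATAAA. Those with a different second letter were AGTAAA, besides it ACTAAA, and besides that ATTAAA. The middle letters differed in AAGAAA, and likewise in AATGAA. The fifth letter differed in AATAGA, besides it AATATA, and besides that AATACA. At least 1 was present at 47 of 82 intronic peaks, 57.3% (46.5–67.5%), and at 57.1% of the 75366 intronic peaks of the list. On the opposite strand of the same windows, 28 of 82 had one, 34.1% (24.8–44.9%), as did 36% in the list. The share at the helicase genes was therefore above that of the opposite strand and at the level of the list.

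AATAAA alone was found at 32 of 82, 39% (29.2–49.8%), where the list had 26.7%, a value below the interval. These were 10 peaks in BRIP1, 7 in BLM, 6 in WRN, 4 in DNA2, 2 each in RECQL5 and HELQ, 1 in RTEL1 and 0 in RECQL. The 9 genes were not matched to the list for base composition, and the interval treats peaks of the same gene as independent. Whether the share differs from that of the list was not tested. All but 1 of the 6 intronic peaks with 20 or more reads had AATAAA, the exception being RECQL5. The list's counts at that height are given above with the heights. The median height was 12 reads with AATAAA and 12 without any hexamer, both in the 9 genes and in the list. Whether height goes with AATAAA was not tested.

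An A stretch (at least 22 A in 25 bases within 50 bp past the edge), where a poly(T) primer can bind inside a transcript, was present at 8 of 82, 9.76% (5.03–18.1%), against 5.89% in the list. Of these, 5 were in BRIP1, all without a hexamer, 2 in WRN and 1 in BLM. With at least 18 A, the count was 22 of 82, 26.8% (18.4–37.3%), against 28.8%. No intronic peak of RECQL5 or RTEL1 reached 18 A. Peaks with a hexamer and fewer than 18 A numbered 43 of 82, 52.4% (41.8–62.9%), against 47% in the list, and had 7 to 28 reads. The 18 peaks with at least 18 A and no hexamer had 8 to 16 reads. The median was 12 reads in both classes. None of the 18 reached 20 reads, as 1004 of 14115 such peaks of the list did, and 8 of the 18 were in BRIP1. Whether the classes differ in height was not tested.

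**Figure D4:**
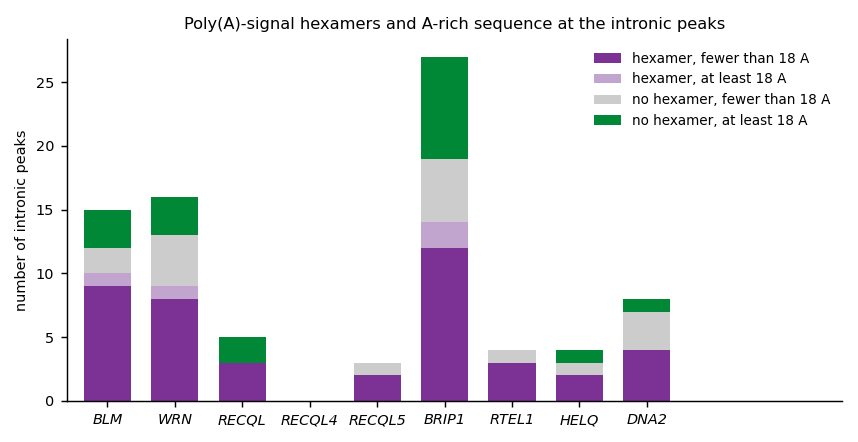
Number of intronic peaks (y axis) in each gene (x axis), divided by whether 1 of 12 hexamers lay in the 100 bp before the 3′ edge and whether 25 bases with at least 18 A lay within 50 bp after it. Peaks with a hexamer and fewer than 18 A form the largest class in every gene with an intronic peak, 12 of 27 in BRIP1 and 9 of 15 in BLM.

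How much protein each end would leave intact was measured against helicase motif I, the Walker A loop that binds ATP and without which these enzymes do not unwind DNA. The motif was located by its residue pattern, which matched 1 place in each canonical protein. Its lysine-containing loop starts at residue 692 of 1417 in BLM (48.8% of the protein) and 574 of 1432 in WRN (40.1%), behind long N-terminal regions. DNA2 has it at residue 651 of 1060 (61.4%), behind the nuclease domain, HELQ at 362 of 1101 and RECQL4 at 505 of 1208. RECQL has it at 116 of 649. In RECQL5, BRIP1 and RTEL1 the motif is close to the N-terminus, at residues 55, 49 and 45.

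Of the 82 intronic peaks, 26 lay upstream of the exon with motif I, 31.7% (22.6–42.4%), and 27.8% of intron sequence lay there with genes weighted by their peaks. By gene these were 8 of 15 in BLM, 8 of 16 in WRN, 6 of 8 in DNA2, and 1 each in RECQL, RECQL5, RTEL1 and HELQ. None of the 27 in BRIP1 did, where 1.85% of intron sequence precedes the motif. Intron sequence before the motif was 48.9% in BLM, 40.9% in WRN and 70.9% in DNA2, close to the shares of peaks there. In BRIP1 the peaks had from 5.47% to 66.5% of the coding sequence upstream, all of them past motif I and short of the protein's end. In RTEL1 they had 2.62% to 23.6%, in RECQL5 4.37% to 38.6% and in DNA2 13.9% to 97.9%. Whether any such transcript is translated was not measured.

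**Figure D5:**
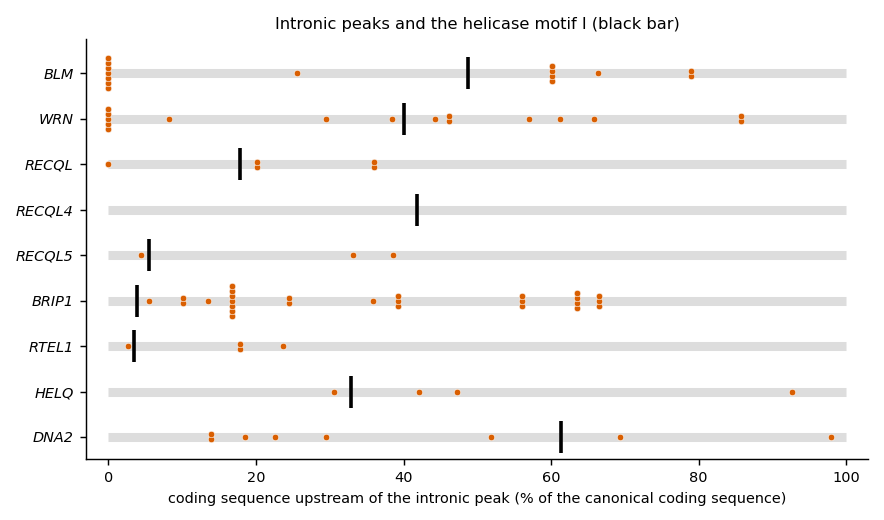
Share of the canonical coding sequence upstream of each intronic peak (x axis, %), for each gene (rows). Points are the 82 intronic peaks, stacked where they share an intron, and the black bar marks helicase motif I. Peaks at 0 are in introns before the start codon (7 in BLM, 5 in WRN, 1 in RECQL), and all 27 peaks of BRIP1 are to the right of its motif.

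Genes of the same processes gave the following background. Among 17 other helicases and translocases of DNA repair, all 17 were detected, as were 12425 of 18754 protein-coding genes with an intron. All 17 had an intronic peak, where 78.1% of detected genes had one, and their median was 4. The tallest intronic peak exceeded the tallest own-end peak in 5: FANCM, HELB, HFM1, RAD54B and MCM9. Over all detected genes with an intronic peak the share was 32%. In HFM1, a meiotic helicase, they were 65 and 7 reads. Among 18 partners of the 9 helicases, 15 had an intronic peak, the median was 6.5, and the intronic peak was the taller in 5: RMI1 and RMI2 of the BLM complex, BRCA1, BARD1 and WRNIP1. Some pairs were close, with 25 and 24 reads in RMI1, 25 and 22 in WRNIP1 and 19 and 15 in BARD1, against 48 and 17 in RMI2. No counting intervals are given for the genes of these 2 lists, and ends under opposite-strand genes were not set apart. BRCA1, to which BRIP1 binds, had 20 intronic peaks in 126 kb, the tallest with 36 reads against 26 at its ends. The median over the 9 helicases was 5 and over all detected genes 3, without allowance for length. The single-stranded DNA binding subunit RPA2, the flap nuclease FEN1 and the clamp PCNA, genes of 23.2, 4.33 and 11.7 kb, had 0.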

How the data were processed

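Poly(A) 3′-seq (QuantSeq) was done on 6 IMR-32 libraries, 2 per group. In the study, the authors trimmed reads and mapped these to GRCh38 with STAR 2.5.1b (up to 20 placements), merged all and called peaks with MACS2 2.1.1, with no control and reads extended to 100 bp. The deposited list gives a fold enrichment (a ratio to local background), a −log10 p-value, a −log10 q-value and a score, which was not used. The methods say that all samples were merged, without saying whether this means these 6 alone or also the other poly(A) libraries of the study.

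The reads at each summit were solved from the deposited fold and −log10 p (a Poisson tail), and the largest misfit was 0.000172. Peaks first solved with a background below 0.337 reads, the most frequent value, were solved again with that value as floor. Of 20000 simulated peaks, 100% were recovered exactly. The simulated backgrounds were higher for their height than many here, such as 0.51 reads at the HELQ end of 23 reads. The simulation therefore does not cover such peaks. By default the peak caller keeps 1 read per start position and strand, so heights are capped. Annotation was Gencode release 44 (the study used an earlier one). A gene was detected when an annotated end had a peak with −log10 q of at least 5. Canonical coding sequences were translated from the genome to find motif I. Sequences are from GRCh38; those of WRN and RECQL4 are not shown.

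The members, lists and rules were chosen with earlier results of these data known. Of the marker list and the list of other helicases, 1 gene each is not reported here. All 9 members are named, with their tallest and first peaks; other peaks were chosen after their values were seen. Nothing was tested between groups; alternative settings are given in the closing section. Python 3.11.15, pandas 2.3.3 and scipy 1.17.1 were used.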

Additional observations from a re-analysis of the deposited data

How the results depend on the processing

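No paired analysis was possible because the merged list does not separate the libraries, and replicates could not be left out in turn for the same reason. With a −log10 q of at least 20, 13 peaks remained in all, 3 of them intronic and 5 at own ends; the hexamer share was then 100%, the A-stretch share 0%, the first-intron share 33.3%, and the median percentile of intronic density over the 9 genes 41.8 in place of 76.1. With canonical transcripts only, 7 end peaks were left, none of them in WRN or BRIP1, which therefore could not be compared. The intronic peak was the taller in 1 gene at the cutoff of 20 (BLM), the only gene with both kinds of peak there. BRIP1 kept intronic but no own-end peaks at that cutoff and could not be compared. Without peaks with at least 18 A the count was 1 (BRIP1). It was 3 with fold enrichment as height (RECQL, BRIP1 and RTEL1) and 3 with an end window of 100 bp either side (BLM, BRIP1 and DNA2). Without peaks under an opposite-strand gene it was 3 (BLM, RECQL5 and BRIP1), and WRN and RECQL had no own-end peak left to compare. With canonical transcripts only it was 2 (BLM and DNA2). The hexamer share was 42.7% with AATAAA and ATTAAA, 39% with AATAAA and 37.8% with the window ending at the summit. The A-stretch share was 26.8% with at least 18 A. Without peaks that had an A stretch and no hexamer, 75 intronic peaks remained. The edge tolerance of 10 bp and the 250 neighbouring genes were chosen after seeing the data; within 5 bp the share of own-end peaks was 52.9% and within 25 bp 58.8%.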
